A study of Homo sapiens with 4 samples.

Results

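The 26S proteasome genes were followed in RNA-seq of the human hepatoma cell line Huh7. Members were the gene symbols that start with PSM, a letter from A to G and a digit, without PSMB8, PSMB9 and PSMB10, which encode the catalytic subunits of the immunoproteasome. There were 46 such genes among the 18806 in the table. Of these, 45 encode proteasome proteins, which are 16 of the 20S core, 17 of the 19S regulator and 12 activators, inhibitors and assembly chaperones. The remaining match, PSMC3IP, encodes a recombination factor and was counted apart. All cells came from a single Huh7 clone that stably expressed Cas9 and were kept under hygromycin B. They carried either a non-targeting guide (sgNS, 2 libraries) or a guide against METTL16 (METTL16 KO, 2 libraries), which encodes an RNA m6A methyltransferase. In the labels the METTL16 group is a knockdown. Because 1 METTL16 guide was sequenced, an effect of METTL16 loss and an effect of that guide cannot be told apart. Expression is given as TPM, a share of all transcripts of a library that is scaled for transcript length.

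The proteasome is the main protease for ubiquitin-tagged proteins in the cytosol and nucleus. Its barrel, the 20S core, is built of outer rings of alpha subunits, which gate the entrance, and inner rings of beta subunits, which hold the proteolytic sites. The 19S regulator binds ubiquitin chains, removes them and unfolds the substrate with its ring of ATPases. In the assembled particle the subunits stand in fixed proportions, and in mammalian cells their genes are known to be induced together by the transcription factor NFE2L1 when the proteasome is inhibited. Under interferon, cells exchange the catalytic subunits for those of the immunoproteasome and make more of the PA28 activator.

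The target gene METTL16 was at 26.3 and 25.1 TPM in the sgNS libraries and 17.6 and 18.8 TPM in METTL16 KO, a fall with an adjusted limma p of 2.4e-05. Tests used limma on log2(TPM + 0.1) for 11971 genes whose mean reached 1 TPM, with Benjamini-Hochberg adjustment over all of them, and a change is called at an adjusted p under 0.05. For 2 libraries per group, exact two-sided permutation of one gene reaches 0.33 at the lowest, so p-values rest on the spread that limma shares between genes. Over all genes tested the median change was 0.16 on the log2 scale, and changes are given beside that shift. Median-ratio scaling, which divides each library by its median ratio to the geometric mean and was an alternative, brought the median to -0.0016. The hepatoma markers ALB, AFP and 7 others were all present and summed to 16566 and 16713 TPM in sgNS but 30865 and 30447 TPM in METTL16 KO. AFP alone was at 1737 and 1793 TPM in sgNS and 10387 and 10197 TPM in METTL16 KO. Of the 9, 8 were higher and APOB was lower, beside 50.1% higher over all genes. SERPINA1 did not pass after median-ratio scaling (adjusted limma p 0.88), nor ALB after quantile normalization (adjusted limma p 0.13). The 8 markers of leukocytes, endothelium and fibroblasts summed to 11.4 and 9.91 TPM against 15.6 and 13.9 TPM, with PTPRC, CD3E, VWF and COL1A1 under 1 TPM in each library and VWF at 0 in 1 of them. Of the 3 that were tested, CD68 was higher (log2 fold change 1.49) and PECAM1 (-0.75) and PDGFRB (-0.67) were lower, the last not without sgNS library 1 or METTL16 KO library 2 (adjusted p of 0.15 and 0.13). The part of these differences in the results for proteasome genes was not tested.

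The subunits of the particle itself were mostly lower in METTL16 KO or did not pass the test, while 3 of the 4 activators were higher. Of the 43 members tested, 16 were lower and 10 were higher. Of all genes tested, 25.6% were lower and 50.1% were higher, and of the 1646 genes with a mean of 100 TPM or more, where 35 of the 43 members lie, 35.9% were lower and 47.1% higher. The share of lower members, 37.2%, is close to that of abundant genes, and their share of higher genes, 23.3%, is smaller, a difference that was not tested. The members lie on 17 chromosomes. All 16 lower members were among the 31 tested of the core and the regulator (51.6%), where 3 were higher. Among the 12 activators, inhibitors and chaperones 7 were higher (58.3%) and 0 were lower, but with median-ratio scaling 5 were higher and 4 lower, and with quantile normalization 5 were higher and 3 lower. In bulk RNA, a lower level can come from fewer expressing cells or from less RNA per cell, which cannot be told apart.

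**Figure D1:**
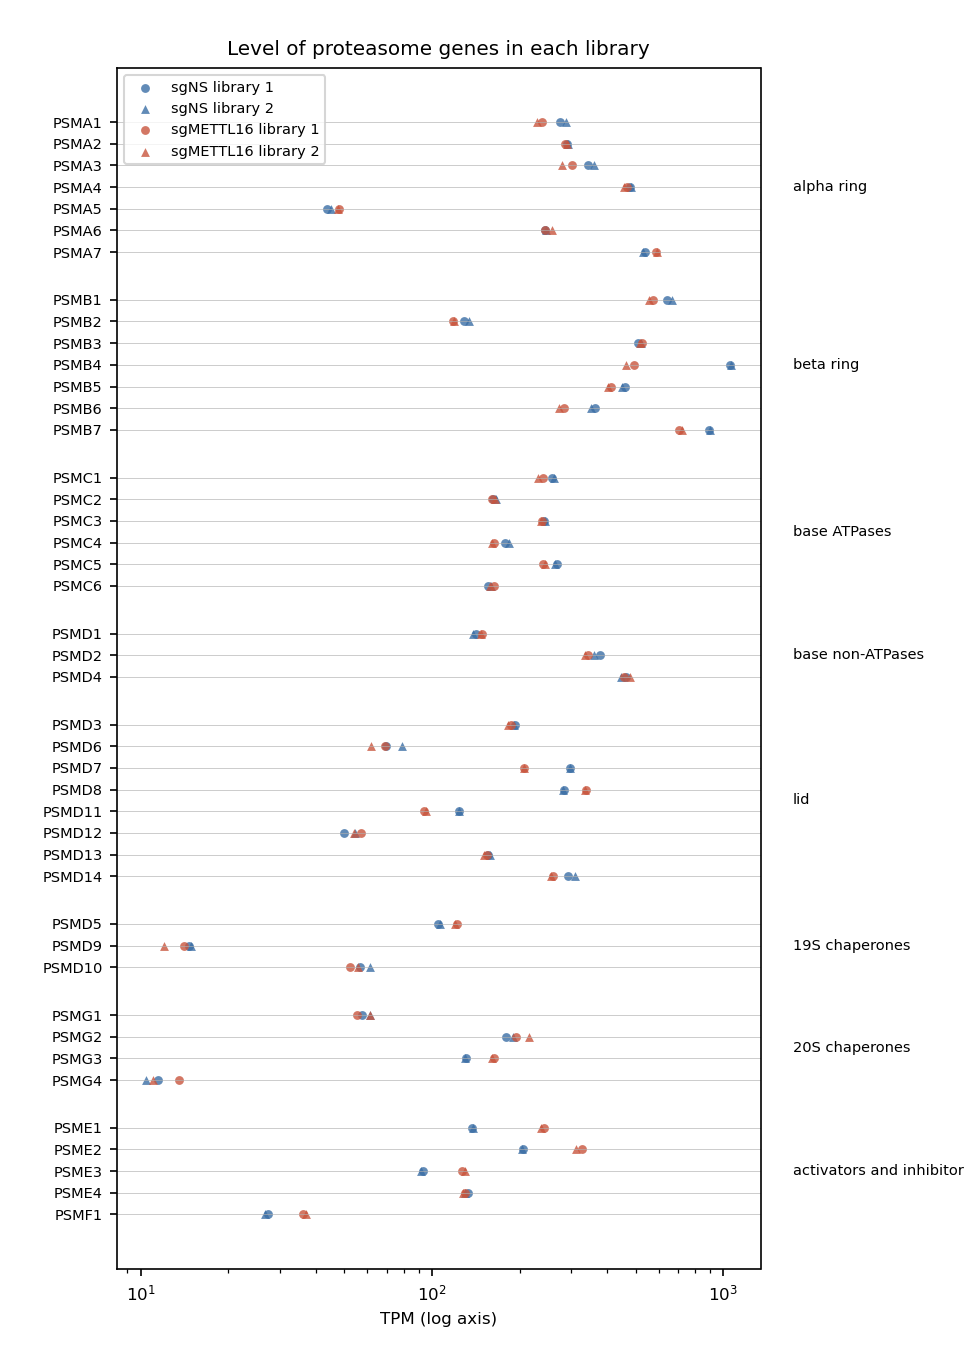
TPM of the 43 proteasome genes tested in each library, on a log axis, by functional class. Circles and triangles are libraries 1 and 2 of sgNS (blue) and METTL16 KO (red, named sgMETTL16 in the key). The libraries of a group lie close together, and PSMB4, at 1055 and 1066 TPM in sgNS, shows the widest gap between groups.

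These counts depended on the scaling and on the model. With an unmoderated linear model, which shares no spread between genes, 8 members were lower and 8 higher. The shares over all genes with that model are not given here. With median-ratio scaling 30 members were lower and 6 higher, where 36.5% of all genes were lower and 36.4% higher, and 51.8% and 30.4% of genes with a mean of 100 TPM or more. With quantile normalization, 25 members were lower and 6 higher, against 35.5% and 36.9% of all genes and 39.6% and 40.6% of those abundant genes. The median log2 fold change was -0.15 for the core, -0.065 for the regulator and 0.18 for activators, inhibitor and chaperones, beside 0.16 for all genes and 0.054 for genes with a mean of 100 TPM or more. The groups did not overlap for 24 lower and 11 higher members, beside 30.7% and 56.8% of all genes. Of the 43 members, 36 lay below the median of all genes, as did 1002 of the 1646 abundant genes, and with quantile normalization 33 did. The summed TPM of the 45 genes was 11130 and 11224 in sgNS and 10285 and 10182 in METTL16 KO, or 1.11%, 1.12%, 1.03% and 1.02% of each library.

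**Figure D2:**
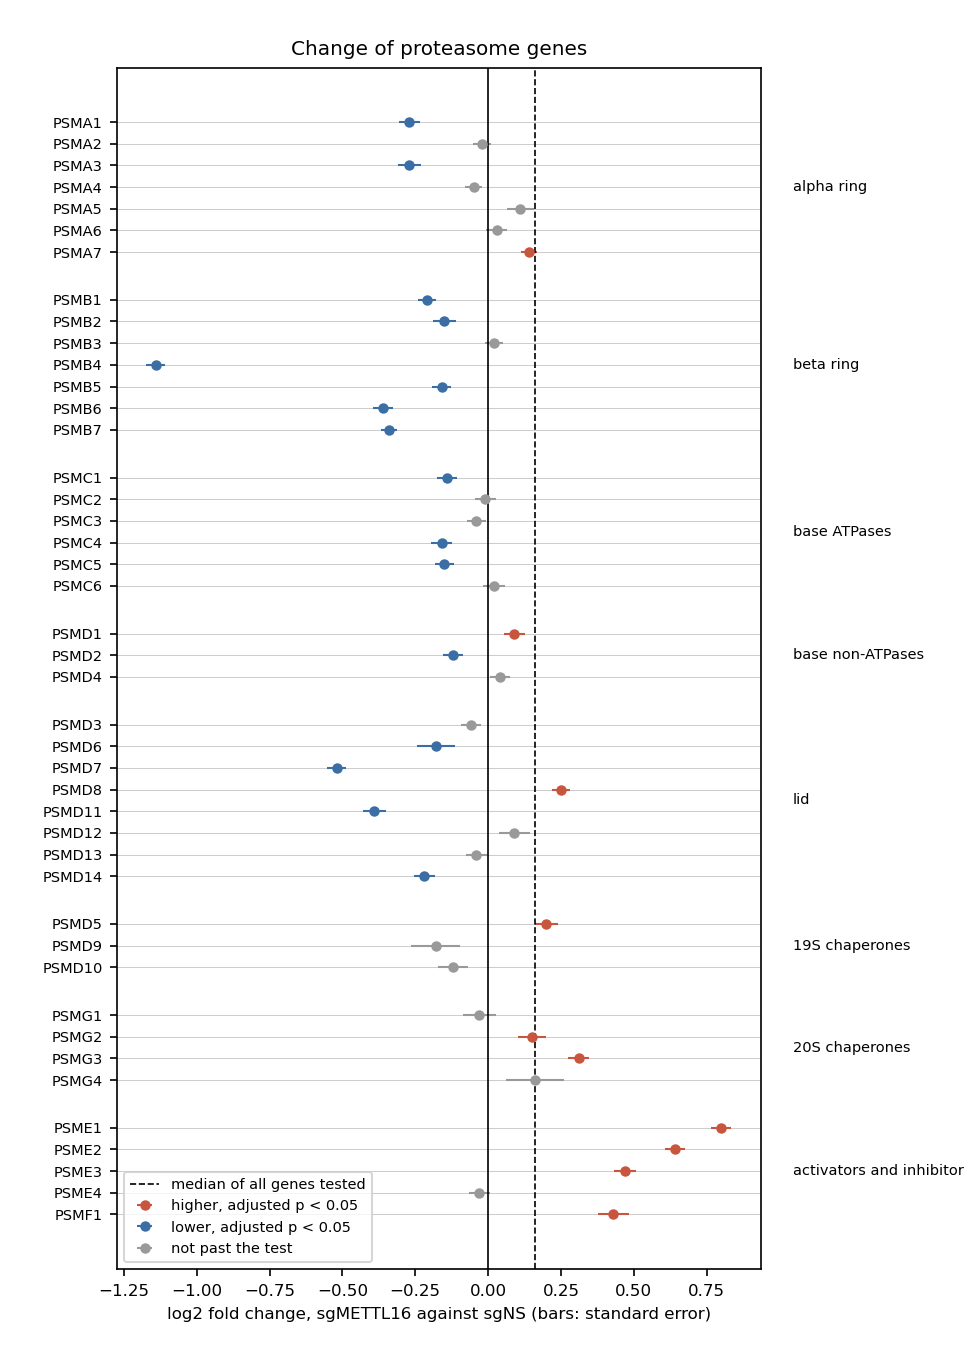
Log2 fold change of METTL16 KO against sgNS for the 43 genes, with limma's standard error, 2 libraries per group. The dashed line is the median of all genes tested, 0.16. The points run from -1.14 for PSMB4 to 0.80 for PSME1, and 30 of the 31 core and regulator subunits lie left of the dashed line.

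The largest change of any member was the fall of PSMB4, a non-catalytic subunit of the beta ring that helps to join the precursor rings during assembly. PSMB4 was at 1055 and 1066 TPM in sgNS, compared with 496 and 465 TPM after METTL16 KO. Both METTL16 KO libraries lay far below both sgNS libraries, at 45.3% of the sgNS mean. This is a change of -1.14 on the log2 scale (standard error 0.033, adjusted limma p 3.9e-10). PSMB4 was the 1 proteasome gene that passed an unadjusted p under 0.01 together with a log2 change of 1 or more in either direction. Of all genes tested, 3.75% were lower and 7.69% higher by those thresholds. PSMB4 lies on the plus strand of chromosome 1 of GRCh38, chr1:151399560-151401937, and overlaps no other protein-coding gene of GENCODE release 44.

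The fall of PSMB4 changed the balance of the core transcripts within each library, a comparison that does not depend on scaling by a single factor. In sgNS PSMB4 was the most abundant of the 14 core transcripts tested, at 2.91 and 2.97 times the median of the other 13. In METTL16 KO it stood at 1.64 and 1.61 times that median and ranked 5 of 14, below PSMB7, PSMA7, PSMB1 and PSMB3. The other 13 ratios moved by factors between 0.871 for PSMB6 and 1.35 for PSMA7. These ratios also reflect a fall of the core median. For all 14 it was 411 and 404 TPM in sgNS and 356 and 346 TPM in METTL16 KO, while the mean TPM of PSMA7 rose 1.1-fold. The ratio of the highest to the lowest core transcript, PSMA5 in every library, was 24.2 and 23.8 in sgNS but 14.7 and 15.1 in METTL16 KO. The summed TPM of the 14 genes fell by 16.7%, and without PSMB4 it fell by 8.97%.

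**Figure D3:**
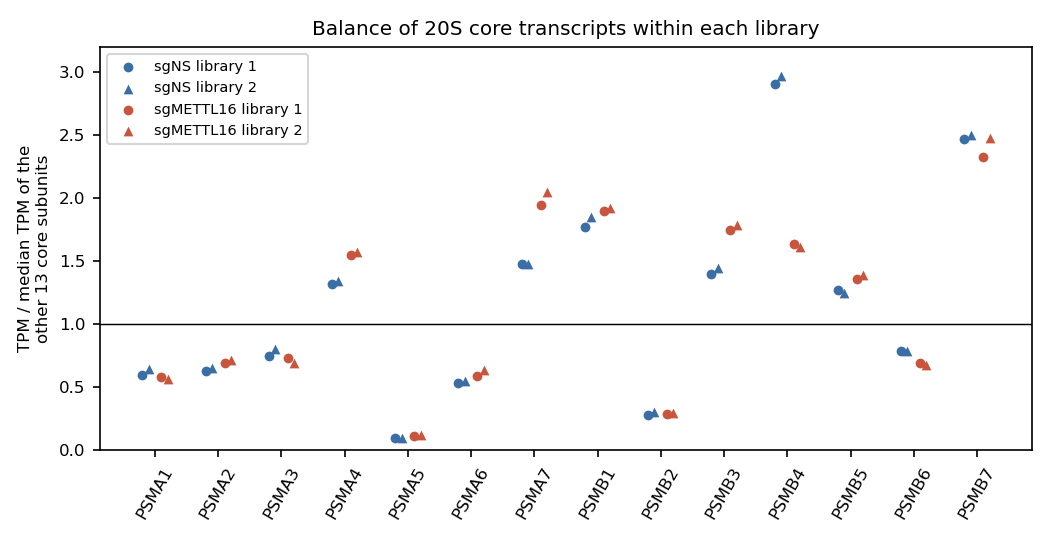
Level of each core transcript as a ratio to the median TPM of the other 13 core transcripts in the same library. Circles and triangles are libraries 1 and 2 of sgNS (blue) and METTL16 KO (red, sgMETTL16). PSMB4 drops from 2.91 and 2.97 to 1.64 and 1.61. PSMA7, 1.1-fold higher in mean TPM, goes from 1.48 in both sgNS libraries to 1.95 and 2.05.

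The 3 subunits with proteolytic sites all fell. PSMB6, which carries the caspase-like activity, was at 362 and 352 TPM in sgNS against 284 and 274 TPM in METTL16 KO (log2 fold change -0.36, adjusted limma p 3.0e-06). PSMB7, with the trypsin-like activity, went from 896 and 898 TPM to 703 and 719 TPM, with a log2 fold change of -0.34 (adjusted p of 9.3e-07). PSMB5, whose chymotrypsin-like site is the main target of clinical proteasome inhibitors, went from 459.8 and 449 TPM to 411 and 403 TPM, a log2 fold change of -0.16 (adjusted p of 6.8e-04). The groups did not overlap for any of these genes, and the fall in PSMB5 was smaller than those of the others. In the rest of the beta ring, PSMB1 (-0.21) and PSMB2 (-0.15) were also lower, although PSMB2 had an adjusted p of 0.057 without METTL16 KO library 1. PSMB3, at 508 and 522 TPM against 528 and 519 TPM, did not pass (adjusted p 0.51), and its groups overlapped. In all, 6 of 7 beta ring genes were lower, against 2 of 7 in the alpha ring and 25.6% of all genes. Of genes with a mean of 100 TPM or more, where all 7 beta ring genes lie, 35.9% were lower. The counts were 7 and 5 with median-ratio scaling, where 36.5% of all genes and 51.8% of those abundant genes were lower. With quantile normalization they were 6 and 4, beside 35.5% and 39.6%. This difference between the rings was not tested.

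In the alpha ring, PSMA3 and PSMA1 fell and PSMA7 was higher. PSMA3 was at 343 and 359 TPM in the sgNS libraries and 302 and 280.3 TPM in METTL16 KO, and PSMA1 was at 274.8 and 289 TPM against 238 and 229 TPM. Both had a log2 fold change of -0.27, with adjusted p-values of 1.1e-04 and 5.7e-05 in limma. Neither passed with the unmoderated linear model (adjusted p of 0.079 and 0.053), at the same log2 fold change. PSMA7 was at 538 and 532 TPM in sgNS, compared with 588 and 593 TPM after METTL16 KO (log2 fold change 0.14, adjusted limma p 7.3e-04). This lies within 0.02 of the shift of all genes and was -0.022 after median-ratio scaling. PSMA2, PSMA4, PSMA5 and PSMA6 did not pass, with log2 fold changes from -0.05 to 0.11. PSMA5 was by far the least abundant core transcript, at 43.7 to 47.8 TPM over the 4 libraries. The tissue-restricted core genes PSMA8, known from testis, and PSMB11, known from thymus, were listed at 0 to 0.09 TPM and were not tested.

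The 19S regulator had a median log2 fold change of -0.065, beside -0.21 in the beta ring, a difference that was not tested. Its largest falls were in the lid, the part that takes ubiquitin off substrates. PSMD7, the partner of the deubiquitinating enzyme PSMD14, was at 297 and 299 TPM in sgNS against 208 and 206 TPM in METTL16 KO. That is 69.5% of the sgNS mean, with no overlap, a log2 fold change of -0.52 (standard error 0.032) and an adjusted p of 9.2e-08 in limma. PSMD11, a lid scaffold subunit, went from 123 and 124 TPM to 93.8 and 95.2 TPM (log2 fold change -0.39). PSMD14 went from 293 and 309 TPM to 260.4 and 255 TPM (-0.22), so that the ratio of PSMD7 to PSMD14 was 1.01 and 0.967 in sgNS and 0.798 and 0.808 in METTL16 KO. PSMD6 passed (log2 fold change -0.18, adjusted p 0.024), but had adjusted p-values of 0.19 without sgNS library 2 and 0.28 without METTL16 KO library 2. Among the 8 lid genes with a PSM symbol, PSMD8 was the 1 that was higher, from 285 and 283 TPM to 338 and 335 TPM, a log2 fold change of 0.25 (adjusted p of 2.6e-05), which was 0.08 after median-ratio scaling. PSMD3, PSMD12 and PSMD13 did not pass, with values from -0.06 to 0.09.

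In the base of the regulator the log2 fold changes ran from -0.16 to 0.09. Of the 6 ATPases that unfold substrates, PSMC1, PSMC4 and PSMC5 were lower, with log2 fold changes of -0.14, -0.16 and -0.15, and PSMC2, PSMC3 and PSMC6 did not pass, with values from -0.04 to 0.02. The call of PSMC1 was lost without METTL16 KO library 2 (adjusted p of 0.063). PSMC4, the ATPase gene with the largest fall, was at 179 and 183 TPM in the sgNS libraries and 163 and 161 TPM in METTL16 KO. Of the scaffold subunits, PSMD2 was at 377 and 361 TPM against 343 and 335 TPM, a log2 fold change of -0.12 (adjusted p of 0.0067), which had an adjusted p of 0.094 without METTL16 KO library 2. PSMD1 was at 141 and 138 TPM against 149 and 148 TPM, a log2 fold change of 0.09 at an adjusted p of 0.048. This call was lost without sgNS library 2 or without either METTL16 KO library (adjusted p of 0.096, 0.2 and 0.17) and after median-ratio scaling, where the value was -0.08. The ubiquitin receptor PSMD4 had overlapping groups (adjusted p of 0.31). The summed TPM of the 17 regulator genes went from 3716 and 3725 to 3521 and 3496, a fall of 5.7%.

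The promoter of PSMD7 is shown because a motif in it recurs among genes of the regulator. Promoter sequences are those of RefSeq on GRCh38.p14, 250 bases before to 50 bases after the start site, and were matched for 37 of the 43 genes. PSMA7, PSMB1, PSMB6, PSMB7, PSMD4 and PSMG3 were not matched. The letters CCGGAAG, the core of an ETS factor site, searched on both strands, were found in 9 of 16 regulator promoters, 0 of 10 core promoters and 3 of 11 promoters of activators, inhibitor and chaperones, and in 10.3% of all 35116 promoters of that length. Of these 9 regulator genes, PSMC1, PSMD6, PSMD7 and PSMD14 were lower and PSMD8 was higher. PSMC2, PSMC6, PSMD12 and PSMD13 did not pass. CCAAT was found in 17 of 37 promoters, beside 34.6% of all promoters. The E-box CACGTG, the site of MYC and related factors, was found in 3 of 37, beside 7.26% of all. The motifs were chosen with the changes known, and a match is a run of letters, not a bound site. The sequence below runs from 250 bases before the start site to 25 bases after it, chr16:74296564-74296838 on the plus strand, with CCAAT (198 bases before the start site) and CCGGAAG (2 bases before it) in capitals. The PSMD7 gene spans chr16:74296814-74306288 of GRCh38 and overlaps no other protein-coding gene.
PSMD7: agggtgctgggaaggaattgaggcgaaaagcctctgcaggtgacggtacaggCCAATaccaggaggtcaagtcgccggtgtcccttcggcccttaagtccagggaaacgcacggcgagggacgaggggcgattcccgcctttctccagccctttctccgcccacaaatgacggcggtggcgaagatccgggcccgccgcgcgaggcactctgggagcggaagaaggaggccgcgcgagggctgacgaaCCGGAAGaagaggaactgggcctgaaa

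Of the activators, PSME1, PSME2 and PSME3 were higher. PSME1 and PSME2 encode the PA28 alpha and beta subunits, an interferon-inducible cap that opens the core without ATP. PSME1 was at 138 and 138 TPM in sgNS, compared with 242 and 236 TPM after METTL16 KO, and PSME2 was at 206 and 204 TPM against 326 and 311 TPM. For both genes each METTL16 KO library exceeded each sgNS library, by 1.74-fold and 1.56-fold in the means. On the log2 scale they rose by 0.80 and 0.64 (adjusted limma p 6.9e-09 and 4.2e-08), and by 0.63 and 0.47 after median-ratio scaling. Relative to the median of the 14 core transcripts, PSME1 went from 0.335 and 0.342 to 0.680 and 0.683, and PSME2 from a mean of 0.502 to 0.915 and 0.898. The genes are neighbours on chromosome 14 in opposite orientation, at chr14:24136163-24138967 (plus strand) and chr14:24143362-24147570 (minus strand) of GRCh38. By these GENCODE spans PSME2 overlaps RNF31 on the other strand by 888 bases. RNF31 was at 24.99 and 23.9 TPM against 30.9 and 31.3 TPM. The RefSeq start site used for the PSME2 promoter below lies inside this span of PSME2, not at its end.

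PSME3, the nuclear PA28 gamma, was at 93.0 and 92.0 TPM in sgNS against 127 and 129 TPM in METTL16 KO (log2 fold change 0.47, adjusted limma p 8.0e-07). PSMF1, which encodes the core-binding inhibitor PI31, was at 27.4 and 26.6 TPM against 36.1 and 37.0 TPM, a log2 fold change of 0.43 (adjusted p of 1.9e-05). Neither gene had overlapping groups, and both overlap a gene on the opposite strand, BECN1 for PSME3 and TMEM74B for PSMF1, whose reads cannot be told apart if counting ignored strand. PSME4, which encodes the activator PA200, was the 1 gene of this class that did not pass, at 133 and 130.0 TPM against 129 and 128 TPM (adjusted p of 0.46). After median-ratio scaling PSME4 was lower, with a value of -0.20 (adjusted p 6.2e-04). Thus 4 of the 5 activator and inhibitor genes were higher, with a class median of 0.47, beside 50.1% higher and a median of 0.16 over all genes.

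The promoters of PSME1, PSME2 and PSMB4 are shown because they share a motif although the genes changed in opposite directions. The core of the interferon-stimulated response element (the letters GAAA, any 2 bases and GAAA, searched on both strands) was found in 5 of the 37 promoters, those of PSMA4, PSMB4, PSME1, PSME2 and PSMG4, and in 3.57% of all promoters. Of these 5 genes, PSME1 and PSME2 were higher, PSMB4 was lower, and PSMA4 and PSMG4 did not pass. TGACNNNGC, the core of the antioxidant response element to which NFE2L1 and NFE2L2 bind, was found in 12 of 37 promoters, among them PSME1 and PSME2, and in 13.3% of all promoters. It was in 1 of 10 core promoters, 4 of 16 regulator promoters and 7 of 11 of the others. TTCNNNGAA, the core of a STAT site, was in 4 of 37, beside 7.66% of all. The sequences run from 250 bases before to 25 bases after the start site, at chr14:24135944-24136218 (plus strand), chr14:24146586-24146860 (minus strand) and chr1:151399323-151399597 (plus strand). Capitals mark the response element core or its reverse complement and TGACNNNGC, which do not overlap in them. The response element core begins 28 bases before the start site in PSME2 and 68 bases before it in PSMB4, and lies on the minus strand after the start site in PSME1.
PSME1: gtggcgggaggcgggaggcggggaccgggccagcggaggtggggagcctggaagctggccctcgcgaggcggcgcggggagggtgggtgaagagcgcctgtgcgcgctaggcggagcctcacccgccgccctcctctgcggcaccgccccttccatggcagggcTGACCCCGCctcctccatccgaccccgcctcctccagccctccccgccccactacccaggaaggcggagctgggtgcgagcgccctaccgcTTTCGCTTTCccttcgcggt
PSME2: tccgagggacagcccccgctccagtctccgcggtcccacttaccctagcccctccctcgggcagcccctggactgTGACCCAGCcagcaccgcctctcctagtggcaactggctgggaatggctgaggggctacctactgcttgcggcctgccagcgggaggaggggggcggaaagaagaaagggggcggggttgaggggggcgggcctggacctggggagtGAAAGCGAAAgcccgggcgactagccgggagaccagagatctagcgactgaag
PSMB4: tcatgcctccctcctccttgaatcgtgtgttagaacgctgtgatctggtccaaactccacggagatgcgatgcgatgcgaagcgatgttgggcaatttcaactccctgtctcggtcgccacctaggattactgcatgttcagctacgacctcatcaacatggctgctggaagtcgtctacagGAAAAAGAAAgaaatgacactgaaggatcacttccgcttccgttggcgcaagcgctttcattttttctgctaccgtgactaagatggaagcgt

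The immunoproteasome genes, which were left out of the members, are given beside their constitutive counterparts. PSMB8, which takes the place of PSMB5, was at 1.46 and 0.74 TPM in the sgNS libraries and 9.80 and 10.1 TPM in METTL16 KO (log2 fold change 3.14, adjusted limma p 4.2e-07). Over the 13 alternatives to this fit, the log2 fold change of PSMB8 ran from 2.41 to 3.58. PSMB10, which takes the place of PSMB7, was at 10.7 and 9.17 TPM against 14.7 and 14.9 TPM, a log2 fold change of 0.58 (adjusted p of 8.7e-05). Its call was lost with the unmoderated linear model (adjusted p of 0.061), at the same log2 fold change. PSMB9 was not analysed here. Both genes stayed far below their counterparts. PSMB8 was 0.318% and 0.165% of PSMB5 in sgNS and 2.38% and 2.51% in METTL16 KO, and PSMB10 was 1.19% and 1.02% of PSMB7 in sgNS and 2.10% and 2.06% in METTL16 KO.

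**Figure D4:**
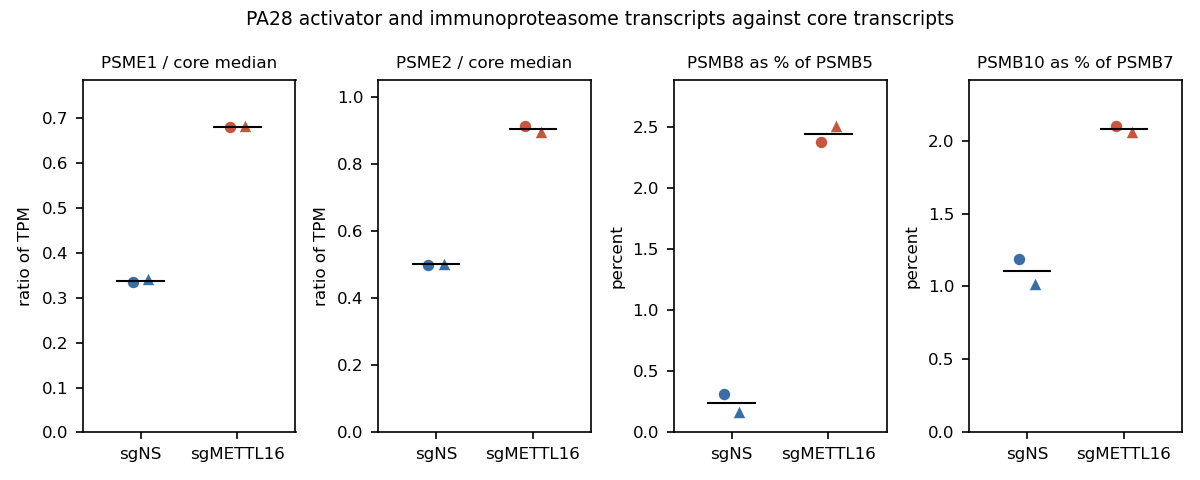
PSME1 and PSME2 as ratios to the median TPM of the 14 core transcripts, and PSMB8 and PSMB10 as percentages of PSMB5 and PSMB7, per library. Circles and triangles are libraries 1 and 2 and lines are group means, with METTL16 KO named sgMETTL16. All 4 quantities are higher in both METTL16 KO libraries, and PSMB8 reaches 2.51% of PSMB5 at most.

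Of the 7 assembly chaperones, 3 were higher (42.9%, beside 50.1% of all genes) and 4 did not pass. With median-ratio scaling 1 was higher, PSMG3, and PSMD9, PSMD10 and PSMG1 were lower, with log2 fold changes of -0.35, -0.29 and -0.19. With that scaling 36.4% of all genes were higher and 36.5% lower. PSMG3, a chaperone of the alpha ring, was at 131 and 129.9 TPM in sgNS, compared with 163 and 161 TPM after METTL16 KO (log2 fold change 0.31, adjusted limma p 1.4e-05). Its partner PSMG4 was at 11.5 and 10.4 TPM against 13.5 and 11.0 TPM, with overlapping groups and an adjusted p of 0.17. PSMG2 passed (log2 fold change 0.15, adjusted p 0.016), but was at -0.015 after median-ratio scaling and did not pass without sgNS library 1 or METTL16 KO library 2 (adjusted p of 0.1 and 0.25). Its partner PSMG1 had overlapping groups. Of the chaperones of the 19S base, PSMD5 was at 105 and 107 TPM against 122 and 119.8 TPM, a log2 fold change of 0.20 (adjusted p of 7.2e-04) that was 0.03 after median-ratio scaling. PSMD9 and PSMD10, the latter also known as gankyrin, did not pass, with log2 fold changes of -0.18 and -0.12.

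Among 12 proteasome-bound factors whose symbols do not start with PSM, 5 were higher (41.7%), 3 were lower and 4 did not pass, beside 50.1% higher and 25.6% lower over all genes. KIAA0368 (now ECPAS), a protein that binds both the core and the regulator, was at 53.6 and 52.9 TPM in sgNS against 26.3 and 25.9 TPM in METTL16 KO (log2 fold change -1.03, adjusted limma p 1.4e-08). The 19S chaperone PAAF1 fell by 0.35 on the log2 scale and IPO9, an importin, fell by 0.32. ZFAND5, a zinc finger protein that stimulates the proteasome, had the largest rise, from 78.1 and 80.2 TPM to 105 and 104 TPM (log2 fold change 0.40). The lid subunit SHFM1 (now SEM1) rose by 0.37, the ubiquitin receptor ADRM1 by 0.27, AKIRIN2, which takes proteasomes into the nucleus, by 0.28, and the ligase UBE3C by 0.17. POMP, the chaperone on which core assembly depends, was at 175 and 183 TPM against 175 and 177 TPM and did not pass (adjusted p of 0.52). The list held changes in both directions, with a median of 0.043. After median-ratio scaling 4 were higher and 7 lower, beside 36.4% higher and 36.5% lower over all genes, and UBE3C was at 0. With the unmoderated linear model 3 were higher. ADRM1 and AKIRIN2 did not pass in it (adjusted p of 0.081 and 0.056), at the same log2 fold changes.

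In the list of NFE2L1, its processing enzymes and its partners, 8 of 11 genes were higher, 1 was lower and the median was 0.28, beside 50.1% higher and a median of 0.16 over all genes. After median-ratio scaling 6 were higher and 3 lower, beside 36.4% higher and 36.5% lower over all genes. With the unmoderated linear model 5 were higher. NFE2L1, MAFF and MAFG did not pass in it (adjusted p of 0.051, 0.059 and 0.065), at the same log2 fold changes. Without sgNS library 2, 3 were lower, since DDI2 and NPLOC4 then passed (adjusted p of 0.025 and 0.0056). NFE2L1 itself was at 91.9 and 86.5 TPM in the sgNS libraries and 109 and 107 TPM in METTL16 KO (log2 fold change 0.28, adjusted limma p 1.3e-04), which was 0.11 after median-ratio scaling. The largest rise was in MAFK, a small MAF partner of NFE2L1 and NFE2L2, from 13.8 and 12.7 TPM to 28.5 and 28.1 TPM (log2 fold change 1.09). NFE2L2 rose by 0.63 and NGLY1, the glycanase that acts on NFE2L1, by 0.50. The ATPase VCP was the gene that fell, from 409 and 399 TPM to 343 and 330.2 TPM (-0.26), and DDI2, the protease that activates NFE2L1, did not pass (adjusted p of 0.090).

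**Figure D5:**
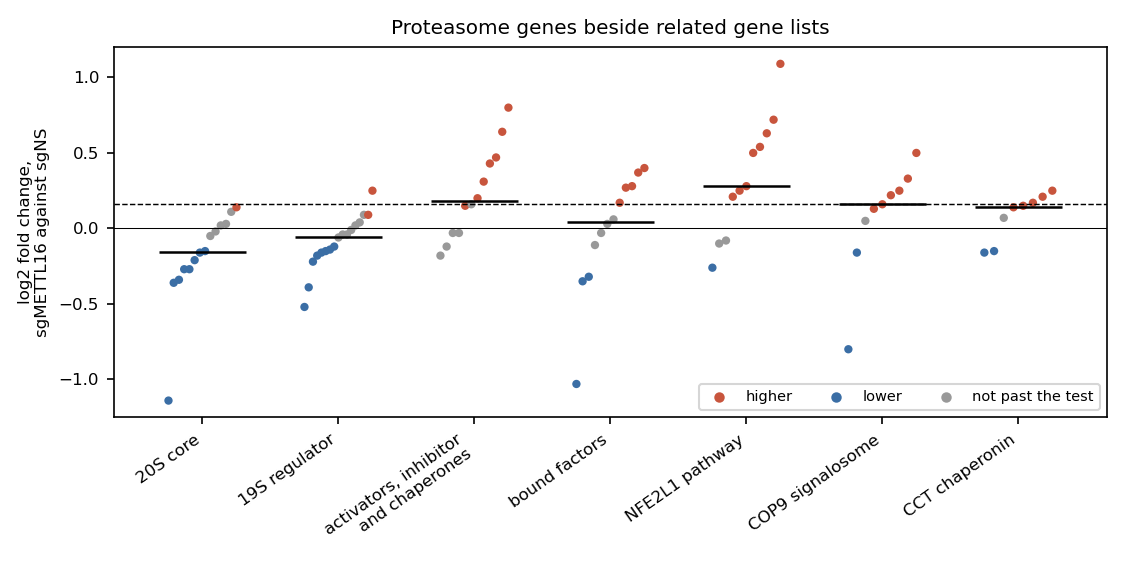
Log2 fold change of METTL16 KO (sgMETTL16) against sgNS for the proteasome genes and 4 lists of related genes, 1 point per gene tested, coloured by the test. Solid bars are list medians, from -0.15 for the core to 0.28 for the NFE2L1 list, and the dashed line is the median of all genes, 0.16.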

How the data were processed

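RNA of 4 Huh7 libraries was sequenced by the authors, who used Cutadapt for trimming, STAR for mapping to GRCh38 and RSEM for gene levels. Versions, annotation and strand setting are not given in the sources used here. The authors deposited 1 table of 18806 gene symbols, whose unit the methods call RPKM. Since each deposited column adds up to 1000000, the values are taken here as TPM. TPM keeps no read counts, so depth and counting error are unknown and no count model was run. The labels name both ribosomal depletion and an mRNA kit.

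Columns were matched to samples by name, and no column was left over. With limma 3.58.1 in R 4.3.3, log2(TPM + 0.1) of 11971 genes whose mean reached 1 TPM was fitted with a mean-variance trend and no block. The fit was tested on simulated data with 100 genes changed by 0.5 and 100 by 1 on the log2 scale. It called 93 and 100 of them, with 18 false calls among 11771 unchanged genes. Those data held no shift of all genes, so the test says nothing on scaling. Summaries were made in Python 3.11.15. Gene positions come from GENCODE release 44 (GRCh38).

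The labels do not say whether replicates were separate cultures, and the paper calls them biological replicates. If they were not, p-values measure technical spread. Processed pseudogenes exist for many of these genes and 16 members overlap another protein-coding gene, so that single values are uncertain. Full values are given for the catalytic subunits, for the largest rise and fall past the test in each class of members and in the lists of bound factors, NFE2L1, COP9 and CCT, and for members past 1 on the log2 scale. Some further genes were named after their values were seen. The members, lists and motifs were chosen with earlier results of these data known. The lists of ubiquitin genes and shuttle factors are not reported here.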

Additional observations from a re-analysis of the deposited data

How the results depend on the processing

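The log2 fold changes of PSMB4 (-1.31 to -1.10), PSMD7 (-0.69 to -0.52), PSME1 (0.63 to 0.81) and PSME2 (0.47 to 0.67) kept their direction and passed under all 13 alternatives, which were other pseudocounts (1 and 0.01), all genes above 0, a minimum mean of 5 TPM, other scalings and models, and each library left out. Scaling moved the counts of members most. Against 16 lower and 10 higher, median-ratio scaling gave 30 and 6 and quantile normalization 25 and 6. With these scalings the median of the core was -0.32 and -0.22, of the regulator -0.23 and -0.13, and of activators, inhibitor and chaperones 0.011 and 0.088. The unmoderated linear model gave 8 lower and 8 higher members. The lower calls of PSMA1, PSMA3, PSMB1, PSMB2, PSMC1, PSMD2, PSMD6 and PSMD14 were lost in it, at the same log2 fold changes. So were the higher calls of PSMD1 and PSMG2. With PSMD5, PSMD9 and PSMD10 counted in the regulator, its median was -0.094. Leaving out each library gave 13 to 17 lower and 9 to 11 higher members and medians of -0.16 to -0.15 for the core, -0.082 to -0.048 for the regulator and 0.2 to 0.25 for the rest, the last without METTL16 KO library 2.

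Median-ratio scaling lowers every gene by about 0.16, and it changed the sign of PSMA7 (-0.022), PSMD1 (-0.08) and PSMG2 (-0.015), which then did not pass. PSMA5 (-0.06), PSMD12 (-0.08) and PSMG4 (-0.01) changed sign and passed under neither scaling. PSMA6 (-0.14), PSMB3 (-0.14), PSMC6 (-0.14) and PSMD4 (-0.13) became lower. Among related genes CCT2 (-0.017), CCT5 (-0.099), CCT7 (-0.03), COPS3 (-0.007), COPS6 (-0.033), COPS7A (-0.12), TXNL1 (-0.14) and USP14 (-0.11) changed sign. With the replicate block, 18 members were lower and 9 higher. The deviations of same-numbered libraries had a correlation of -0.0445 across genes, so the number is not shown to pair them. The call of PSMD1 was lost with the block (adjusted p of 0.074), and those of PSMD9 and PSMD10 were gained. Depth is unknown, which leaves genes of low abundance, such as PSMB8, PSMB10, PSMD9 and PSMG4, without a counting error.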

Other observations

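Genes of other protein complexes changed in both directions. Of 9 genes of the COP9 signalosome, a relative of the 19S lid, 6 were higher and 2 lower, with a median log2 fold change of 0.16. Over all genes tested 50.1% were higher and 25.6% lower. COPS2 did not pass without sgNS library 2 or METTL16 KO library 2 (adjusted p of 0.21 and 0.38), which left 1 lower. COPS5, the counterpart of the lid enzyme PSMD14, was at 154 and 155 TPM in sgNS, compared with 88.8 and 87.8 TPM after METTL16 KO (log2 fold change -0.80, adjusted p of 1.1e-08 in limma), and COPS7B had the largest rise, from 28.8 and 29.9 TPM to 42.3 and 40.9 TPM (0.50). Of the 8 genes of the CCT chaperonin, which folds actin and tubulin, 5 were higher and 2 lower, beside the same shares of all genes, with a median of 0.14. TCP1 had the largest rise, from 368 and 366 TPM to 434 and 439 TPM (0.25), and CCT4 the largest fall, from 496 and 508 TPM to 449.7 and 452 TPM (-0.16). The medians of all genes and of genes with a mean of 100 TPM or more were 0.16 and 0.054. After median-ratio scaling, 2 COP9 genes were higher and 2 lower, and 1 CCT gene was higher and 3 lower. With that scaling 36.4% of all genes were higher and 36.5% lower. Of genes with a mean of 100 TPM or more, where all CCT genes lie, 30.4% were higher and 51.8% lower. With the unmoderated linear model 3 COP9 genes were higher and 1 lower, and 1 CCT gene was lower. No difference between these complexes and the proteasome was tested.

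Of the 13 other genes tested within 250 kb of PSMB4, 3 were lower and 7 were higher, near the 25.6% and 50.1% of all genes, and the median was 0.14 on the log2 scale. The lower genes were CGN (-0.59), SELENBP1 (-0.48) and VPS72 (-0.12), all with smaller falls than PSMB4, and the largest rise was in TUFT1, from 10.2 and 9.66 TPM to 27.4 and 27.9 TPM (1.47). POGZ, which begins or ends 787 bases from PSMB4, had 0.09 (adjusted p of 0.11 in limma), and PSMD4, at 132081 bases, had 0.04. Near PSMD7 there were 2 other genes tested, GLG1, which fell by 0.49 (adjusted p of 7.0e-06 in limma) beside -0.52 for PSMD7, and NPIPB15, which rose by 1.04. Around PSME1 and PSME2, the 24 other genes tested, PSME2 among them, had a median of 0.20. CIDEB had the lowest value, from 28.4 and 27.6 TPM to 8.72 and 7.87 TPM (-1.74), and LTB4R2 the highest, from 1.16 and 0.56 TPM to 1.71 and 1.84 TPM (1.04). IRF9, an interferon-signalling factor in this window, was at 11.5 and 11.0 TPM in sgNS against 17.8 and 17.4 TPM in METTL16 KO (log2 fold change 0.64, adjusted p of 7.5e-06 in limma).

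PSMC3IP, whose symbol matched but which encodes no proteasome protein, was at 7.98 and 8.63 TPM in the sgNS libraries and 12.5 and 11.8 TPM in METTL16 KO (log2 fold change 0.54, adjusted p of 1.1e-04 in limma).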
